A study of Homo sapiens with 11 samples.

Results

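The genes described here are 37 SR proteins and hnRNPs out of 57773 genes in the deposited expression table. Selection was by symbol and not by any measured value, though with earlier results of these data known. They comprise 10 SR proteins, the 2 SR-like TRA2 proteins, the 2 SR-related matrix proteins SRRM1 and SRRM2, 6 hnRNPs of the A/B and D type, 4 of the F/H type, the 3 PTB proteins with HNRNPL, the 3 KH-domain poly(C)-binding proteins PCBP1, PCBP2 and HNRNPK, ELAVL1, and 5 other hnRNPs. Their mRNA level was measured by RNA-Seq in 9 libraries of HCC78, a lung adenocarcinoma cell line that itself carries S34F in U2AF1 beside a fusion of SLC34A2 to ROS1. HCC78 cells had been transduced with a tet-inducible lentiviral construct for wild-type (WT) or S34F U2AF1 bearing an N-terminal FLAG-6xHA tag, and stable subclones were used. The groups were WT dox+ (construct induced with doxycycline, 2 replicates), S34F dox+ (2 replicates), WT dox- (the WT line without doxycycline, 2 replicates), S34F dox- (1 library, numbered replicate 2) and the parental line without a construct (2 replicates). The sample labels give the parental cells as untreated, whereas a column heading of the study's supplement marks them as doxycycline-treated, so whether the parental libraries stand for untreated cells is not settled, and values set against them carry that limit. Every group shares the endogenous S34F allele, and the labels put S34F at 62% and 65% of U2AF1 mRNA in S34F dox+, 12% and 14% in WT dox+, and 28% to 33% in the other 5 libraries. Nothing in the labels says that replicates came from separate cultures, so p-values measure only the spread between these libraries.

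SR proteins bind exonic enhancers through RNA-recognition motifs and recruit the spliceosome through their arginine-serine-rich domains, and many hnRNPs bind silencers and oppose them. U2AF1 acts at the step that both sets of proteins tune, since it is the small subunit of U2AF and reads the AG at the 3′ end of the intron. Many genes of both families regulate themselves: their protein promotes inclusion of a "poison" exon, or splicing or retention of an intron, in their own pre-mRNA, and the resulting transcript is degraded by nonsense-mediated decay. Splicing was therefore examined beside the mRNA level.

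The libraries were not equal in quality. Depth relative to the first parental library, estimated from the steps between low FPKM values, ran from 0.595 to 1.23, with the lowest values in S34F dox+ (0.707 and 0.595), and read totals are unknown. Genes at 1 FPKM or above numbered 15736 to 20896 in the 4 dox+ libraries and 13661 to 14688 in the other 5. S34F dox+ replicate 2 stood apart with the highest number, including 3588 pseudogenes, so results that rest on it are also given without it. All 9 lung epithelial markers examined, EPCAM, NKX2-1 and ROS1 among them, were at 8 FPKM or above in every library, while 7 of 10 markers of immune, endothelial, stromal or liver cells had a mean under 1 FPKM. U2AF1 itself was at 278 and 299 FPKM in WT dox+, 164 and 223 in S34F dox+, and 112 and 109.9 in WT dox-, 115 in S34F dox- and 115 and 103 in the parental line, so both dox+ groups lay above the libraries of all other groups. The log2 difference of U2AF1 between S34F dox+ and WT dox+ was -0.59 (adjusted p = 0.531 in limma), without overlap of the libraries.

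All 37 genes were expressed in HCC78 and passed the minimum mean of 1 FPKM. On the FPKM scale, which is per length of transcript, the mean over the 9 libraries ran from 7.78 FPKM for PTBP2, the neuronal PTB protein, to 1192 FPKM for HNRNPA1, a shuttling repressor of splice sites. HNRNPA2B1 (mean level 1014 FPKM), PCBP2 (816 FPKM), HNRNPK (642 FPKM), HNRNPC (568 FPKM) and HNRNPD (519 FPKM) followed HNRNPA1, and 25 of the 37 genes had a mean of at least 100 FPKM. Of the 36 pairs of neighbours in this order, 32 overlapped in their ranges over the libraries. The 4 gaps lay between HNRNPA2B1 and PCBP2, between HNRNPU and HNRNPM, between SRSF6 and SRSF4, and between ELAVL1 and PTBP3. Together the 37 genes made up 1.47% to 1.71% of the summed FPKM of protein-coding genes. Pseudogenes of the members (128 entries, with HNRNPA1P7, HNRNPA3P6 and HNRNPA1P48 at the highest level) summed to 152 to 260 FPKM per library, against 8988 to 10888 FPKM for the members, and reads may have been split between such near-identical copies.

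**Figure D1:**
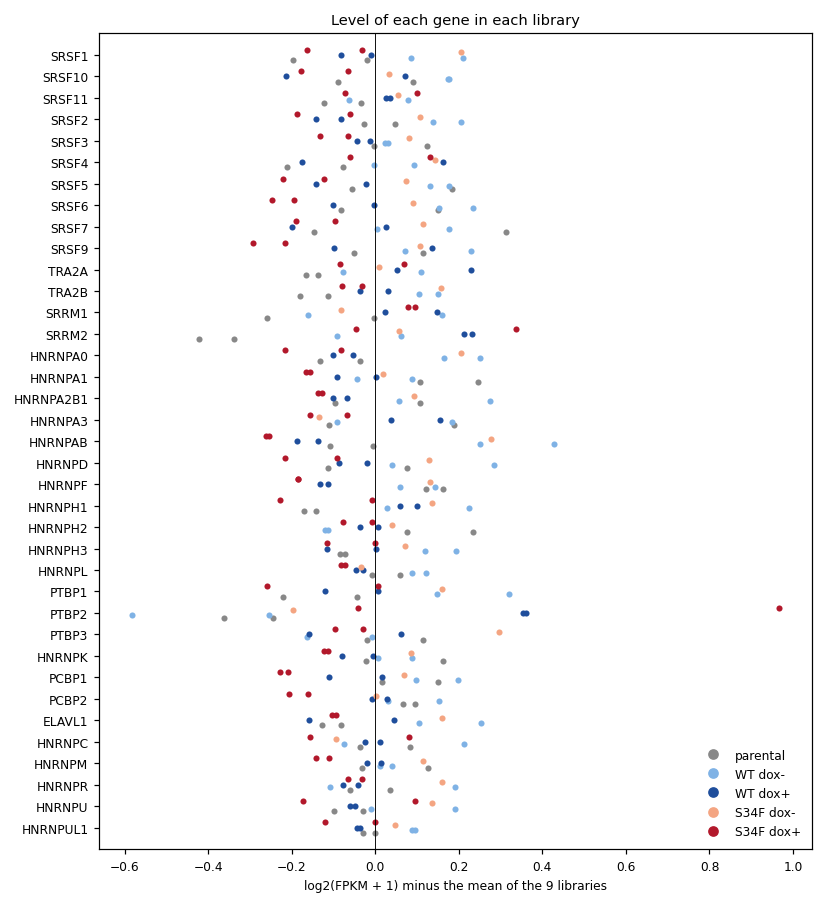
Level of each of the 37 genes in each library, as log2(FPKM + 1) minus that gene's mean over the 9 libraries; each point is a library, coloured by group. Points of WT dox- and S34F dox- lie mostly right of the line and those of S34F dox+ mostly left of it, and PTBP2 in S34F dox+ replicate 2 (15.3 FPKM) lies far to the right.

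The comparison of S34F dox+ with WT dox+ asks whether these genes differed in level between the mutant and wild-type U2AF1 lines at equal treatment. The mutation cannot be told apart here from the transduced line or from the lower U2AF1 level in S34F dox+. None of the 37 genes passed the test. In bulk RNA, fewer cells with a transcript and less of it per cell cannot be told apart. Levels differed little: log2 fold changes on the log2(FPKM + 1) scale, which is used for all fold changes here, ran from -0.27 for SRSF9 to 0.11 for PTBP2, with a median of -0.056, against 0.029 over all 15179 genes tested. In limma, 0 genes of the 37 were higher or lower at an adjusted p under 0.05 and 0 at an unadjusted p under 0.05, whereas 0.0198% of all genes were higher and 0.0329% lower at the former and 4.01% higher and 2.77% lower at the latter. The 95% interval of the difference lay between -0.5 and 0.5 for 34 of the 37 genes, so that a change of the mRNA by more than that size was outside the interval for these. The exceptions were SRSF9, HNRNPA3 and PTBP2.

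A small, common lean was seen nonetheless. The estimate was below 0 for 32 of the 37 genes, compared with 44.6% of all genes. It was below 0 for 54.1% of the 2317 genes whose mean reached 50 FPKM, which had a median of -0.014. Both S34F dox+ libraries lay below both WT dox+ libraries for 15 of the 37 genes (HNRNPA1, HNRNPA2B1, HNRNPA3, HNRNPAB, HNRNPD, HNRNPF, HNRNPH1, HNRNPK, HNRNPL, HNRNPM, PCBP1, PCBP2, SRSF3, SRSF6 and SRSF9), and above them for 0, whereas 15.3% of all genes lay below and 20.5% above. Among the 2317 genes whose mean reached 50 FPKM, to which 31 of the members belong, 22.4% lay below and 17.3% above. The count depended on the scaling, since with TPM 29 members lay below, beside 27.2% of all genes. Without S34F dox+ replicate 2, 22 members lay below and 4 above, beside 35.4% and 38% of all genes.

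Among the SR proteins, the largest difference was that of SRSF9, which shuttles between nucleus and cytoplasm and represses or activates exons. Its level was 92.9 and 104 FPKM in the parental line, 101 and 113 in WT dox-, 106 and 89.8 in WT dox+, 104 in S34F dox- and 82.6 and 78.4 in S34F dox+. Both S34F dox+ libraries were the lowest of the 9, and the log2 difference from WT dox+ was -0.27 (standard error 0.12, adjusted p = 0.747 in limma). Of the TRA2 proteins, which bind GAA-rich enhancers, TRA2A differed most, at 42.0 and 42.9 FPKM in the parental line, 44.8 and 51.0 in WT dox-, 49.1 and 55.5 in WT dox+, 47.5 in S34F dox- and 49.6 and 44.5 in S34F dox+. Its groups overlapped, and the log2 difference was -0.15 (adjusted p = 0.868, limma). SRRM2, a scaffold of nuclear speckles, had 191 and 179.7 FPKM in the parental line, 252 and 226 in WT dox-, 283 and 279.6 in WT dox+, 251 in S34F dox- and 234 and 305 in S34F dox+. Its S34F dox+ replicates straddled the WT dox+ values, and the estimate of -0.077 became 0.11 without S34F dox+ replicate 1.

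Among the hnRNPs of the A/B and D type, HNRNPA3 showed the largest difference, with 195 and 158 FPKM in the parental line, 194 and 160.2 in WT dox-, 175 and 190.1 in WT dox+, 155 in S34F dox- and 163 and 153 in S34F dox+. The S34F dox+ libraries were below the WT dox+ libraries, but WT dox- and parental replicates spanned both, and the log2 difference was -0.21 (adjusted p = 0.819, limma). Among the F/H proteins, which bind G-runs, HNRNPH1 had 401 and 393 FPKM in the parental line, 517 and 451 in WT dox-, 461 and 474 in WT dox+, 486 in S34F dox- and 377 and 440.1 in S34F dox+, with a log2 difference of -0.20 (adjusted p = 0.776, limma). PCBP2, which binds C-rich sequence and also stabilises mRNA, was at 869 and 851 FPKM in the parental line, 905 and 831 in WT dox-, 809 and 829.5 in WT dox+, 814 in S34F dox- and 705 and 727 in S34F dox+. Here the S34F dox+ libraries were again the 2 lowest of the 9, and the log2 difference was -0.19 (standard error 0.09, adjusted p = 0.75 in limma). HNRNPM, a regulator of alternative exons in mesenchymal cells, showed the same arrangement at 328 and 293 FPKM in the parental line, 309 and 302 in WT dox-, 296 and 303 in WT dox+, 325 in S34F dox- and 272 and 278 in S34F dox+, with a log2 difference of -0.12 (adjusted p = 0.847, limma). ELAVL1, which binds AU-rich elements and stabilises mRNA, was at 43.8 and 42.4 FPKM in the parental line, 55.5 and 50.0 in WT dox-, 41.5 and 47.9 in WT dox+, 51.9 in S34F dox- and 43.4 and 43.1 in S34F dox+, with overlapping groups and an estimate of -0.043 that became 0.059 without WT dox+ replicate 2.

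PTBP2 had the widest interval of the 37 genes. It was at 5.48 and 6.03 FPKM in the parental line, 4.56 and 5.99 in WT dox-, 9.7 and 9.64 in WT dox+, 6.27 in S34F dox- and 7.1 and 15.3 in S34F dox+, so the WT dox+ replicates agreed closely and lay between the S34F dox+ replicates. The estimate of 0.11 (95% interval -0.61 to 0.82) became -0.40 without S34F dox+ replicate 2, the library with the most genes detected.

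**Figure D2:**
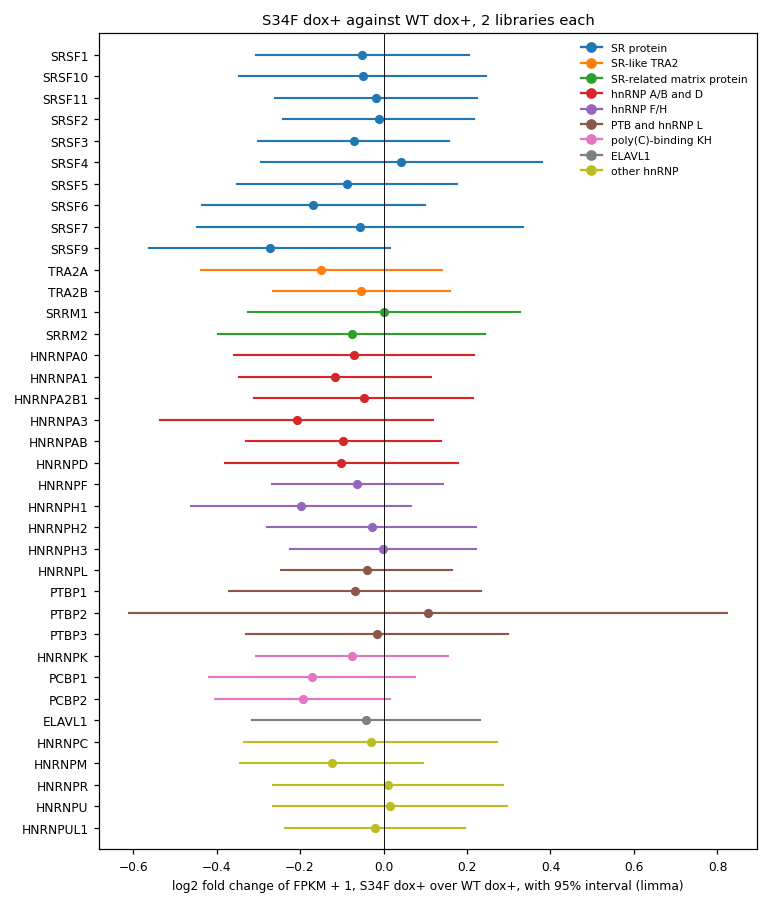
Log2 fold change of FPKM + 1 in S34F dox+ over WT dox+ (x axis) for each of the 37 genes, ordered by role, with the 95% interval from limma. Points of 32 genes lie left of 0 and all intervals include 0, that of PTBP2 being the widest.

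Comparing each transduced line with and without doxycycline asks what the induction itself did, and here too the 37 genes leaned to lower levels. The treatment with doxycycline and the extra U2AF1 protein cannot be told apart in this comparison, since no treated line without a construct was assigned to it. In the WT line, WT dox+ lay below WT dox- without overlap for 21 of the 37 genes, beside 20.8% of all genes, and above for 3 (HNRNPH2, PTBP2 and SRRM2), beside 28.9%. In the S34F line, both S34F dox+ libraries lay below the single S34F dox- library for 30 of the 37 genes, beside 28.7% of all genes, and above it for PTBP2 and SRRM1 alone, beside 42.9%. Of the 2317 genes of at least 50 FPKM, 39.7% lay lower without overlap in the WT line and 54.6% in the S34F line. The shares of the 31 members at that level were 61.3% and 83.9%. The 2 lines share no library in these comparisons. All 21 genes that lay lower in the WT line also lay lower in the S34F line, while 13.1% of all genes tested, and 33.1% of the 2317 genes of at least 50 FPKM, lay lower without overlap in both lines. Median log2 fold changes of the members were -0.13 in the WT line and -0.21 in the S34F line, against 0.049 and 0.087 over all genes and -0.079 and -0.14 over those of at least 50 FPKM. With the deposited FPKM, genes of high level thus leaned the same way as the members but less. With TPM, 19 members lay lower without overlap in the WT line and 33 in the S34F line, beside 18.1% and 38.6% of all genes. With median-ratio scaling the numbers were 23 and 32, beside 24.3% and 34.6% of all genes. Quantile normalization moved the median of all genes in the S34F line from 0.087 to -0.042. The gap between the medians of members and all genes went from -0.29 to -0.035 in the S34F line, from -0.18 to -0.026 in the WT line, and from -0.086 to -0.049 for S34F dox+ against WT dox+, so the lean with doxycycline was the larger one with the deposited FPKM but not after quantile normalization. The 4 dox+ libraries also had the higher numbers of genes and pseudogenes detected and a summed level of the 10 markers of other cell types of 7.62 to 18.2 FPKM, against 4.46 to 8.86 FPKM in the other 5, and the part of these in the result was not tested.

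The genes concerned were spread over the classes. The 21 comprised 6 SR proteins (SRSF1, SRSF2, SRSF3, SRSF5, SRSF6 and SRSF10) with TRA2B, 4 hnRNPs of the A/B and D type, HNRNPF and HNRNPH3, all 3 poly(C)-binding proteins, PTBP1 with HNRNPL, ELAVL1, HNRNPU and HNRNPUL1. SRSF4, SRSF11, TRA2A, HNRNPA3, HNRNPC and both SR-related matrix proteins were not among them. In limma, 0 of the 37 genes passed an adjusted p of 0.05 in either line, where 0.00659% of all genes were higher and 0.00659% lower in the WT line, and 0.198% and 0.0856% in the S34F line. At an unadjusted p under 0.05, SRSF2, HNRNPAB and HNRNPF were lower and PTBP2 higher in the WT line, compared with 5.59% and 8.8% of all genes, and SRSF9, HNRNPA0, HNRNPAB and HNRNPF were lower in the S34F line, compared with 5.11% of all genes.

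HNRNPAB, a paralogue of HNRNPD that binds AU-rich and promoter sequence, stood out in both lines. Its level was 218 and 203 FPKM in the parental line, 295 and 261 in WT dox-, 192 and 199 in WT dox+, 266 in S34F dox- and 183 and 183 in S34F dox+. All 4 dox+ libraries were below the other 5, and the 3 transduced libraries without doxycycline were above the rest. The log2 fold change was -0.50 in the WT line (standard error 0.10, adjusted p = 0.142 in limma) and -0.54 in the S34F line (standard error 0.12, adjusted p = 0.145). When the doxycycline responses of the lines were averaged in a single contrast, which was added after these values had been seen, HNRNPAB fell by 0.52 (standard error 0.079, adjusted p = 0.0231 in limma) and was the 1 member of 37 called, beside 1.09% of all genes called lower and 2.79% higher. This call was kept with TPM, median-ratio scaling and quantile normalization (adjusted p from 0.0226 to 0.0484). It was lost in 6 of the 8 fits that left out a library (adjusted p up to 0.117), namely all except those without WT dox- replicate 2 or S34F dox+ replicate 1, although the estimate stayed between -0.56 and -0.47.

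In that averaged contrast 14 members were lower and PTBP2 was higher at an unadjusted p under 0.05, against 9.22% of all genes lower and 15.9% higher. With quantile normalization 4 members were lower (ELAVL1, HNRNPA0, HNRNPAB and HNRNPF), beside 11.2% of all genes, so their share was then close to the background. Fewer than 14 were also lower without WT dox+ replicate 1, where the median of the members was -0.15, against -0.16 with all libraries. HNRNPF, which binds G-runs near splice sites, was at 257 and 264 FPKM in the parental line, 261 and 246 in WT dox-, 215 and 218 in WT dox+, 258 in S34F dox- and 207 and 207 in S34F dox+. The 4 dox+ libraries were all below the other 5, and the log2 fold changes were -0.22 (adjusted p = 0.317, limma) in the WT line and -0.32 (adjusted p = 0.244, limma) in the S34F line. SRSF2, an SR protein of the nuclear speckle that remains in the nucleus, showed 117 and 123 FPKM in the parental line, 138 and 131 in WT dox-, 108 and 112 in WT dox+, 128 in S34F dox- and 104 and 114 in S34F dox+. The dox+ libraries were the 4 lowest, with a log2 fold change of -0.28 (adjusted p = 0.274, limma) in the WT line and -0.23 (adjusted p = 0.391, limma) in the S34F line. HNRNPA0, which binds AU-rich elements, had 16.2 and 17.4 FPKM in the parental line, 20.1 and 21.4 in WT dox-, 17.2 and 16.6 in WT dox+, 20.8 in S34F dox- and 15.2 and 16.8 in S34F dox+, with log2 fold changes of -0.28 and -0.35. For SRSF9, whose WT replicates overlapped between treatments, the values were -0.13 and -0.36.

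PTBP2 went the other way, with log2 fold changes of 0.78 (adjusted p = 0.321, limma) in the WT line and 0.66 (adjusted p = 0.428, limma) in the S34F line. Without S34F dox+ replicate 2, 7.10 FPKM in S34F dox+ remained above 6.27 FPKM in S34F dox-. PTBP1, whose protein represses a PTBP2 exon needed for a stable mRNA, was at 231 and 262 FPKM in the parental line, 337 and 299 in WT dox-, 248 and 271 in WT dox+, 302 in S34F dox- and 226 and 271 in S34F dox+, with log2 fold changes of -0.29 (adjusted p = 0.362, limma) and -0.29 (adjusted p = 0.415, limma).

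**Figure D3:**
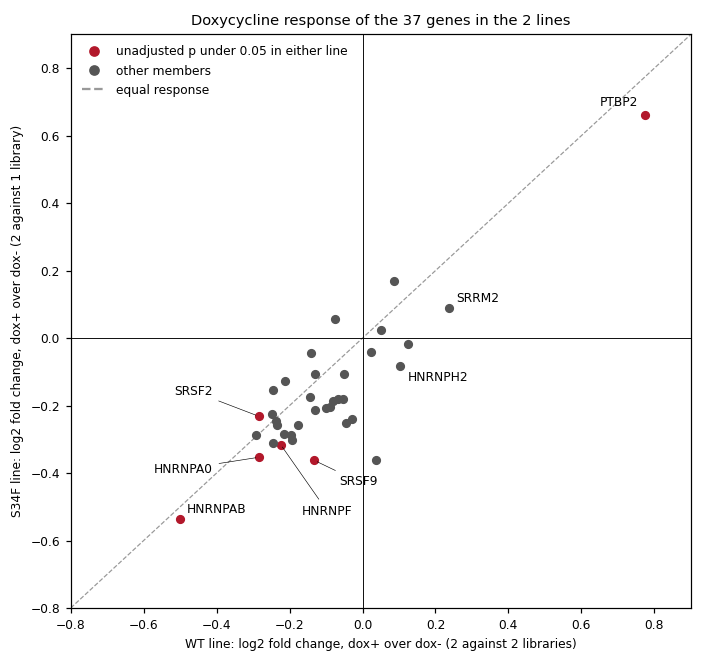
Log2 fold change with doxycycline in the WT line (x axis, 2 against 2 libraries) and the S34F line (y axis, 2 against 1 library) for the 37 genes; red points had an unadjusted p under 0.05 in limma in either line and the dashed line marks equal responses. Most genes lie at the lower left, HNRNPAB (-0.50 and -0.54) at the edge, and PTBP2 (0.78 and 0.66) lies far from the rest at the upper right.

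The difference between the doxycycline responses of the S34F and WT lines tests whether S34F induction acted differently from WT induction. None of the 37 genes had an unadjusted p under 0.05 in limma for this difference, where 2.21% of all genes were higher and 1.21% lower, and 0 had an adjusted p under 0.05, beside 0.00659% and 0.0198% of all genes. Estimates ran from -0.40 for PTBP3, a PTB paralogue outside neurons, to 0.13 for HNRNPC, which guards against exon-like Alu sequence. The half-width of the 95% interval had a median of 0.42 over the 37 genes and reached 1.13 for PTBP2. The absence of a call therefore does not show that the lines responded equally. The difference between the responses and that between the lines before induction rest on 1 S34F dox- library. The fit assumes this library to vary like the other groups. Between S34F dox- and WT dox-, 7 genes lay higher without overlap and 11 lower, beside 29.3% and 32.3% of all genes, and 0 had an unadjusted p under 0.05, compared with 1.48% higher and 1.63% lower among all genes. At an adjusted p under 0.05 the number was also 0 in limma, beside 0.0264% and 0.0198%.

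Comparing WT dox- with the parental line sets the transduced line beside the line it came from, and here most of the 37 genes were higher in WT dox-. WT dox- lay above the parental line without overlap for 17 of the 37 genes and below it for HNRNPA1 and HNRNPH2, beside 21.6% and 22.4% of all genes. The median log2 fold change was 0.12, against a median of 0 over all genes to 2 decimals. None passed an adjusted p of 0.05 in limma, beside 0.0395% of all genes higher and 0.0593% lower. Before adjustment, 9 had a p under 0.05 and were higher (SRSF1, TRA2B, SRRM2, HNRNPA0, HNRNPAB, HNRNPH1, HNRNPH3, PTBP1 and ELAVL1), beside 5.79% of all genes, and HNRNPH2 was lower, beside 6.54%. The 9 became 4 with quantile normalization and 4 with the replicate number as a block, beside 865 and 825 of all 15179 genes higher. Fewer than 9 also passed when any 1 library of the parental, WT dox- or WT dox+ groups was left out. The median of the members stayed between 0.094 and 0.14 without single parental or WT dox- libraries. Among the 9 epithelial markers, SLC34A2 (-1.09) and ROS1 (-1.02) were lower and KRT7 (0.43) higher in WT dox- before adjustment, and the part of this in the result was not tested. If the parental cells were treated with doxycycline, as the supplement's heading has it, treated cells were the lower ones here as well, so transduction and doxycycline cannot be told apart in this comparison. The WT dox- libraries also enter the comparison with WT dox+.

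HNRNPAB led again, with 0.40 (standard error 0.10, adjusted p = 0.206 in limma), followed by PTBP1 with 0.37 and SRRM2 with 0.36. For SRRM2 the parental libraries were the 2 lowest of the 9. SRSF1, the founding SR protein, was at 138 and 156 FPKM in the parental line, 183 and 168 in WT dox-, 149.5 and 157 in WT dox+, 183 in S34F dox- and 155 and 141 in S34F dox+, and TRA2B, which promotes its own poison exon, was at 152 and 159.6 FPKM in the parental line, 192 and 186 in WT dox-, 169 and 176 in WT dox+, 193 in S34F dox- and 169 and 163 in S34F dox+. Both were highest in the 3 transduced libraries without doxycycline, and their log2 differences from the parental line were 0.26 and 0.27. HNRNPH3, a shorter F/H protein, showed 266 and 268 FPKM in the parental line, 322 and 305 in WT dox-, 259.8 and 282 in WT dox+, 295 in S34F dox- and 259.8 and 281 in S34F dox+ (log2 difference 0.23), and HNRNPH1 and ELAVL1 differed by 0.28 and 0.28. HNRNPH2, the X-linked paralogue of HNRNPH1, was at 57.6 and 51.5 FPKM in the parental line, 45.0 and 44.8 in WT dox-, 49.0 and 47.6 in WT dox+, 50.2 in S34F dox- and 48.5 and 46.2 in S34F dox+. Its WT dox- values were the 2 lowest of the 9, with a log2 difference of -0.27 (adjusted p = 0.364, limma).

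**Figure D4:**
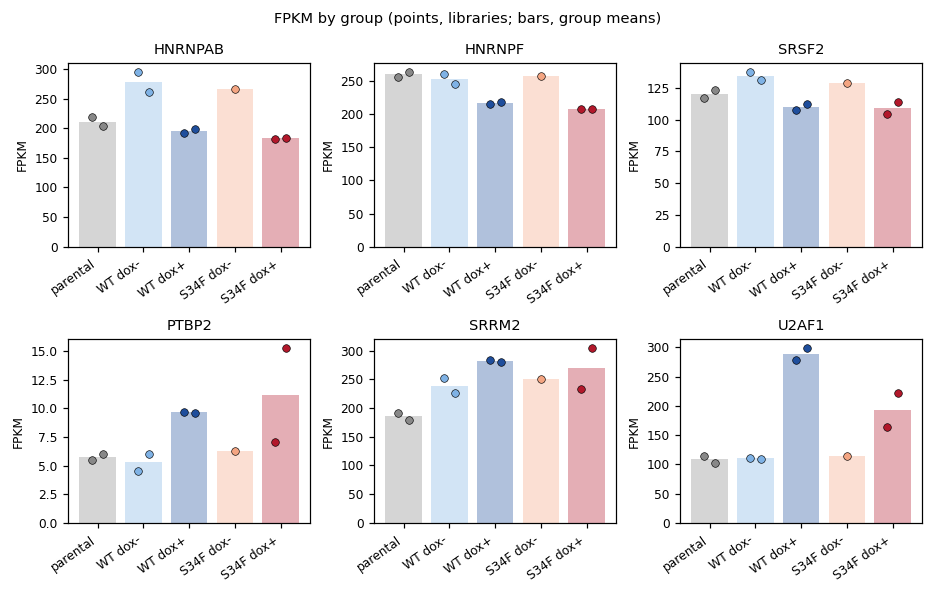
FPKM of HNRNPAB, HNRNPF, SRSF2, PTBP2, SRRM2 and U2AF1 in each group; points are libraries and bars group means, with axes that start at 0. HNRNPAB, HNRNPF and SRSF2 are lower in all 4 dox+ libraries than in the dox- libraries of their line, while U2AF1 is higher.

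Genes that act on these proteins were examined too. Of 11 kinases and import receptors of SR proteins and hnRNPs (SRPK, CLK, DYRK1A, PRPF4B and transportin genes), 10 were tested, SRPK3 being too low. None passed an adjusted p of 0.05 in any of the 6 comparisons in limma, where the share of all genes was at most 0.198% in either direction. At an unadjusted p under 0.05, CLK4, a kinase that phosphorylates SR proteins, and TNPO1, which imports hnRNPs with an M9 signal, were higher in WT dox+ than in WT dox-, 2 of 10 tested, beside 8.8% of all genes. CLK4 was at 16.9 and 12.3 FPKM against 10.4 and 8.58 (log2 fold change 0.57), and TNPO1 at 90.3 and 85.0 against 74.8 and 58.6 (log2 fold change 0.40). Of 20 related splicing regulators outside the 37, such as HNRNPDL, TARDBP and RBMX, 17 were tested, and again 0 passed an adjusted p of 0.05. NONO, a paraspeckle protein, was lower in WT dox+ than in WT dox- (-0.21, adjusted p = 0.345), and SYNCRIP, also called hnRNP Q, was lower in S34F dox+ than in S34F dox- (-0.38, adjusted p = 0.221), both in limma with an unadjusted p under 0.05. Each was 1 of 17, close to the 5.59% and 5.11% of all genes that were lower in these comparisons.

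Splicing of the same genes was compared between S34F and wild-type U2AF1 in the deposited MISO results, which give for each event the percent spliced in (PSI, here a fraction from 0 to 1), a Bayes factor and the reads of each condition. They carry no replicates, and the mutation cannot be told apart from the transduced line or the U2AF1 level here either. The comparison is described as one between cells overexpressing either isoform and is taken as S34F dox+ against WT dox+, but which libraries were combined is not given in the sources used here, so no error or p-value accompanies these values and a Bayes factor compares the reads of the 2 conditions only. The members had 342 events, all with at least 10 reads, in 34 of the 37 genes, and PCBP1, HNRNPA0 and ELAVL1 had none. They were deeply covered, with a median of 6464 reads against 541 over all 87763 events. An event was called changed where PSI differed by 0.10 or more with a Bayes factor from 5 upwards. This held for 4 of the 342 events (1.17%), in SRSF2, SRSF7, SRSF10 and HNRNPA3, compared with 1.18% of all events and 1.33% of the 32280 events with at least 1000 reads. The share of changed events among SR protein and hnRNP genes was therefore close to the background. Of the 4, 2 had a higher and 2 a lower PSI in S34F, compared with 0.579% and 0.599% of all events. Among those with at least 1000 reads the shares were 0.672% and 0.66%. A Bayes factor from 5 upwards, at any difference in PSI, was reached by 8 of the 342 events (2.34%), beside 1.3% of all events. With at least 1000 reads these shares were 2.56% and 1.64%. Genome positions follow the deposited tables, and only 15 of the 342 events lay within the gene's span in GRCh38, so they are taken to be in hg19 (GRCh37), a build named in the submitters' processing notes.

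Which isoform PSI stands for was checked from introns that occur in more than 1 table. For retained introns PSI is the spliced share: the 7 such events of ACTB, GAPDH, TUBA1B, RPLP0 and TPT1 had a median of 0.98 in wild-type. Where such an intron was the skipping junction of a skipped exon event, its spliced share and the exon's PSI had a Spearman's rho of -0.40 (256 pairs). This describes events that share reads. For the first-listed junction, into the exon, rho was only 0.13 (560 pairs). PSI is read as inclusion of the exon, which is also how the paper describes the measure. Where such an intron was the second-listed site of an alternative 3′ splice site event, rho was 0.58 (276 pairs). Where it was the first-listed site, rho was -0.31 (336 pairs), so PSI tracked the second-listed site. For NAGNAG events, a choice between acceptors 3 bases apart, rho was -0.44 (216 pairs) for the first-listed site and 0.13 (79 pairs) for the second-listed site. The check was unclear for these and no side is given.

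The largest change was in HNRNPA3, which encodes a relative of HNRNPA1 that binds the same UAGG-like motifs. The skipped exon on chromosome 2 (+ strand, 3′ splice site at 178082433, between the 5′ splice site at 178081668 and the downstream 3′ splice site at 178083765) had a PSI of 0.19 with S34F against 0.44 with wild-type U2AF1, a difference of -0.25, with a Bayes factor of 219 over 3074 and 5179 reads. The exon was thus included less in S34F. The other events of HNRNPA3, both NAGNAG choices, differed by 0.02 or less. HNRNPA3 mRNA was 163 and 153 FPKM in S34F dox+ and 175 and 190.1 in WT dox+.

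SRSF7, an SR protein with a zinc knuckle, held 3 overlapping events within the intron on chromosome 2 (- strand) from the 5′ splice site at 38976671 to the 3′ splice site at 38975795, which contains its alternative exon. The alternative 3′ splice site event, between positions 38976488 and 38976315 (173 bases apart), had a PSI of 0.80 with S34F against 0.57 with wild-type U2AF1 (Bayes factor 57.8, 1373 and 2218 reads). In the skipped exon event the exon starting at 38976488 was included at 0.05 with S34F against 0.12 with wild-type, with a Bayes factor of 274, the highest of all member events, but a difference of -0.07 that stayed under 0.10. The retained intron event, for the whole intron of 875 bases, had a PSI of 0.79 and 0.72 (Bayes factor 6.37). These events share reads and are not independent. In S34F the exon was thus included less, the intron was spliced more, and use of the second-listed, downstream site at 38976315 was higher. SRSF7 mRNA was 76.5 and 106 FPKM in the parental line, 85.0 and 95.9 in WT dox-, 73.8 and 86.3 in WT dox+, 91.9 in S34F dox- and 79.3 and 74.2 in S34F dox+, with a log2 difference of -0.056 (adjusted p = 0.979, limma) between S34F dox+ and WT dox+ and overlapping groups.

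In SRSF10, which represses splicing when dephosphorylated, the skipped exon on chromosome 1 (- strand, 3′ splice site at 24297929, from the 5′ splice site at 24298063 or skipped to 24294213) had a PSI of 0.37 with S34F against 0.51 with wild-type U2AF1 (Bayes factor 19.2, 1040 and 1741 reads). Its mRNA was at 102 and 115 FPKM in the parental line, 122 and 122 in WT dox-, 93.2 and 114 in WT dox+, 111 in S34F dox- and 95.6 and 103 in S34F dox+, and S34F dox+ and WT dox+ overlapped. In SRSF2, an intron of 498 bases on chromosome 17 (- strand, 74731143 to 74730644) had a spliced share of 0.50 with S34F against 0.38 with wild-type (Bayes factor 8.19, 2187 and 3260 reads). SRSF2 protein is known to promote splicing at the 3′ end of its own mRNA, which lowers its stability. Levels of SRSF2 mRNA overlapped between S34F dox+ and WT dox+, with a log2 difference of -0.012 (95% interval -0.24 to 0.22). The other SRSF2 intron listed, 995 bases long, had 0.82 and 0.83.

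HNRNPH1 was the further gene with Bayes factors over 5. A pair of retained intron events on chromosome 5 (- strand) that share the 3′ splice site at 179043219 had spliced shares of 0.79 against 0.85 (Bayes factor 28.8, intron of 650 bases) and 0.80 against 0.85 (Bayes factor 17.2, 802 bases), so splicing was lower in S34F by 0.06 and 0.05, under the threshold. At 11468 and 10160 reads these were among the well-covered events, where a small difference can carry a high Bayes factor. Its mRNA was 377 and 440.1 FPKM in S34F dox+ and 461 and 474 in WT dox+.

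In 15 other genes the strongest event had a Bayes factor between 1 and 5, too low for a call. The largest differences among these were in PTBP3, where an alternative 5′ splice site 9 bases away had a PSI of 0.40 with S34F against 0.69 with wild-type U2AF1 (Bayes factor 4.38, 4464 reads), and in SRSF4, where an alternative 3′ splice site 33 bases away had 0.92 and 0.64 (Bayes factor 4, 452 reads). SRSF5 had a spliced share of 0.27 against 0.38 for an intron of 1215 bases (Bayes factor 1.73), and the alternative 3′ splice site event on the same intron gave the same values of 0.27 and 0.38. In HNRNPR a skipped exon had 0.87 and 0.96 (Bayes factor 3.42), in HNRNPC 0.78 and 0.73 (Bayes factor 2.56), in PTBP1 0.91 and 0.99 (Bayes factor 2.15), and in HNRNPM 0.41 and 0.24 (Bayes factor 1.51). The strongest events of PCBP2 (an alternative 3′ splice site with several isoforms, 0.48 and 0.62, Bayes factor 2.08), HNRNPD (a skipped exon, 0.01 and 0.03, Bayes factor 1.80) and HNRNPAB (a retained intron, 0.58 and 0.65, Bayes factor 1.35) were weaker. HNRNPUL1 (an alternative 5′ splice site, 0.92 and 0.99), SRSF11 (a NAGNAG choice, 0.55 and 0.53), SRSF1 (a NAGNAG choice, 0.58 and 0.37) and HNRNPL (a NAGNAG choice with 16 reads, 0.57 and 0.40) had Bayes factors from 1.12 to 1.27, as did an event listed for HNRNPH3 on the opposite strand (an alternative 5′ splice site, 0.14 and 0.35). In the remaining 14 genes with events no Bayes factor exceeded 0.93.

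That group included the well-known self-regulating exons given next, which were picked after their values were seen. They do not stand for all regulated events of the members. The alternative exon of SRSF7 (difference -0.07, Bayes factor 274) and the shorter SRSF2 intron (difference 0.12, Bayes factor 8.19) lay outside that group. In SRSF3 the skipped exon between 36566760 and 36568929 on chromosome 6, which its protein promotes, had a PSI of 0.19 with S34F against 0.22 with wild-type U2AF1 (Bayes factor 0.17, 6228 reads). The poison exon of TRA2B on chromosome 3, with its 3′ splice site at 185649640, had 0.39 and 0.43 (Bayes factor 0.20, 7104 reads). In SRSF6 the exon at 42087793 on chromosome 20 had 0.06 and 0.05 (Bayes factor 0.06, 5007 reads). At these read numbers the deposited PSI values differed by at most 0.04, although without replicates the error of such a difference is unknown. Over all 342 events the median absolute difference in PSI was 0.02, and 14% of the events differed by at least 0.10, compared with 0.05 and 32.9% over all events. Among events with at least 1000 reads, where members and other genes are closer in coverage, the medians were 0.02 and 0.02 and the shares 11.2% and 16.6%.

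**Figure D5:**
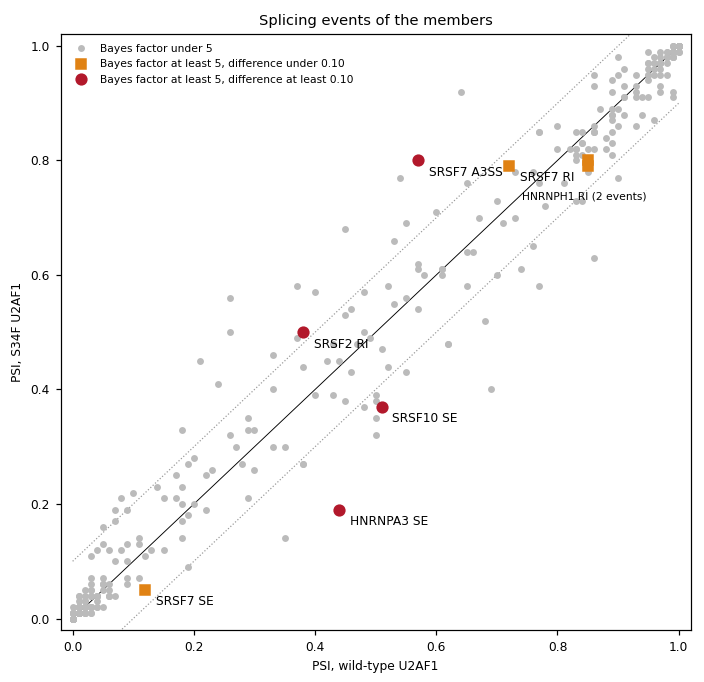
PSI of the 342 member events with S34F (y axis) against wild-type U2AF1 (x axis); red circles passed both thresholds, orange squares had a Bayes factor of at least 5 with a difference under 0.10, grey points are the rest, and dotted lines mark a difference of 0.10 (SE skipped exon, RI retained intron, A3SS alternative 3′ splice site). HNRNPA3 (0.19 against 0.44) and SRSF7 (0.80 against 0.57) lie farthest from the diagonal among the called events.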

How the data were processed

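RNA-Seq was performed on HCC78 cells by the authors with the SMARTer stranded total RNA kit, and paired-end reads were aligned to the human genome with STAR and quantified with RSEM. The submitters' processing notes name STAR 2.3.0, RSEM 1.2.29 and both hg19 and hg38 without roles, so the build behind the expression values is not settled. The authors deposited FPKM and TPM values per gene for 9 libraries. They also deposited MISO tables holding, for each splicing event, PSI as a fraction for S34F and wild-type, the Bayes factor as a score, and read counts. The depth behind the FPKM values is unknown, and counts of reads were not used for gene-level tests.

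Here, FPKM was tested as log2(FPKM + 1) with limma 3.58.1 (R 4.3.3; empirical Bayes with a trend) on the 15179 genes that averaged 1 FPKM or more across libraries. The fit had 5 groups and no covariates, used 6 contrasts, and p-values were adjusted by Benjamini-Hochberg over all genes tested, with a threshold of 0.05. Events were called at the thresholds of the study methods (difference in PSI at least 0.10, Bayes factor at least 5, at least 10 reads). The 37 genes and all gene lists were chosen with earlier results of these data known. Genes described in full were the leader of each class by size of the S34F against WT difference, those with an unadjusted p under 0.05 in any comparison, and those with a changed event. Events described in full were the changed ones and each gene's event with the highest Bayes factor where that was at least 1, and the exons of SRSF3, TRA2B and SRSF6 were added as textbook self-regulating exons after their values were seen. The fit was tested on simulated data whose changes were larger than any estimate for the 37 genes, so its power at their size was not tested. Alternatives were other pseudocounts, minimum levels, scalings, TPM, protein-coding genes alone, the replicate number as a block, single libraries left out, and other event thresholds. The iCLIP samples were not analysed here.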

Additional observations from a re-analysis of the deposited data

Results flagged for a closer look

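HNRNPH2, an F/H protein, was singled out because its libraries moved without overlap in opposite directions with doxycycline in the WT and S34F lines. Each of these moves was common, with 28.9% of all genes higher in the WT line and 28.7% lower in the S34F line. The share of all genes that met both was not counted, so the selection has no background beside it. It went from 45.0 and 44.8 FPKM in WT dox- to 49.0 and 47.6 FPKM in WT dox+ (log2 fold change 0.10), and from 50.2 FPKM in S34F dox- to 48.5 and 46.2 FPKM in S34F dox+ (log2 fold change -0.083). The difference between these responses was -0.19 on the log2 scale and did not pass its test (adjusted p = 1.0 in limma). The WT dox- values of HNRNPH2 were the 2 lowest of the 9 libraries. Groups held 2 libraries at most, too few for a check of single outlying libraries within a group.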

How the results depend on the processing

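Counts of members called at an adjusted p of 0.05 were 0 in all 6 comparisons under every alternative run. Of 464 alternative values of the 27 gene-level differences described, 461 kept their direction and their side of the adjusted threshold (lowest adjusted p 0.102 in limma). The 3 that reversed were differences between S34F dox+ and WT dox+, namely ELAVL1 (-0.14 to 0.059 with single libraries left out, the latter without WT dox+ replicate 2), PTBP2 (-0.40 without S34F dox+ replicate 2 to 0.61 without replicate 1) and SRRM2 (-0.27 to 0.11, the latter without S34F dox+ replicate 1). The number of members with an unadjusted p under 0.05 and a lower level varied more, here with all libraries kept. It ran from 0 to 8 for S34F dox+ against WT dox+ and from 2 to 20 for S34F dox+ against S34F dox-. Both were highest with TPM, where 1030 and 1596 of all 15179 genes were lower, against 420 and 775 with FPKM. For WT dox+ against WT dox- it ran from 2 to 10, highest with no minimum FPKM, beside 1192 of all 57773 genes. The number higher in WT dox- than in the parental line ranged from 4 to 12, the latter with TPM, beside 1514 of all 15179 genes. Some fits without 1 library gave lower numbers in the last 2 comparisons. The cause was not tested. For the averaged doxycycline response, leaving out single libraries gave 0 to 2 members called. Changed events numbered 2 (HNRNPA3 and SRSF7) with a Bayes factor of at least 20, and 2, in the same genes, with a difference in PSI of at least 0.20. Comparisons with S34F dox- have no value without its single library.

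Same-numbered replicates did not deviate together (correlations of deviations -0.076 to 0.037 over genes), so the numbers are not taken to pair the libraries. With the replicate number as a block, 0 members were called in each comparison. The block cannot move estimates between groups that hold both numbers. The median log2 fold change of the members moved from -0.069 to -0.094 for the difference between the doxycycline responses and from -0.008 to -0.022 for S34F dox- against WT dox-. Members higher in WT dox- than in the parental line at an unadjusted p under 0.05 went from 9 to 4, beside 879 and 825 of all 15179 genes.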
